A study of Mus musculus with 6 samples.

Results

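The xenobiotic metabolism enzymes described here are the cytochrome P450 families 1 to 4, the flavin-containing monooxygenases, the glutathione transferases of the alpha, mu, omega, pi and theta classes, the UDP-glucuronosyltransferases and the cytosolic sulfotransferases. They were chosen by gene symbol alone, which found 131 probe sets for 121 of the 21999 gene symbols on the array. For the 9 symbols with more than 1 probe set, the brightest on average stood for the gene. RNA from the whole lung of single mouse embryos at E14.5 was read on 6 arrays, 3 for each of a pair of genotypes. The control lungs carried Shh-cre, in which the recombinase Cre follows the expression of Sonic hedgehog. The mutant lungs were Shh-cre:Foxp1flox/flox:Foxp4flox/flox, and all embryos were on a mixed background of C57BL/6 with 129X1 and 129S1. Whether control embryos also carried floxed alleles is not stated in the labels. Sonic hedgehog is an epithelial gene in the embryonic lung, so deletion is limited to the epithelium while the array reads RNA of all cells of the organ. The study asked what loss of the forkhead factors Foxp1 and Foxp4 does to secretory differentiation of the lung epithelium.

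Xenobiotic metabolism works in steps. P450s and flavin monooxygenases add or expose a reactive group on a lipophilic compound, with electrons delivered to P450s by the reductase Por, and transferases then attach glutathione, glucuronic acid or sulfate so that the product can be exported. In the adult mouse lung the club cell, the secretory cell of the airway, holds most of the P450 activity, with Cyp2f2 and Cyp4b1 as its best known enzymes, and liver holds many of the other members at far higher levels. At the embryonic stage studied here club cells have not yet matured.

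Of 121 members 0 passed the test for a difference between mutant and control lungs (limma, adjusted p under 0.05 over all 28815 probe sets), against 0.774% of all probe sets (0.514% higher and 0.26% lower in mutants). The smallest adjusted p were those of Cyp4f16 (0.140) and Gstm4 (0.149), both higher in mutants by 0.21 on the log2 scale. At an unadjusted p under 0.05 there were 11 members, 3 higher and 8 lower in mutants, or 9.09% against 11.8% of all probe sets (5.22% higher and 6.56% lower). For 20 members, or 16.5%, all mutant values lay on 1 side of all control values, 7 higher and 13 lower, which held for 18% of all probe sets (7.83% higher and 10.1% lower). Over all members both shares lay below those of the whole array, and over the brighter members given next they lay above those of equally bright probe sets. The median log2 difference, mutant minus control, was -0.021 over the members and -0.018 over all probe sets. It was above 0 for 47 members (38.8%) and for 41.6% of all probe sets. In bulk lung, fewer cells of a type and less RNA per cell cannot be told apart.

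These values also bound the size of a difference. For 119 of the 121 members the 95% interval of the log2 difference lay within a 1.5-fold change in either direction, as it did for 97.7% of all probe sets. The exceptions were Cyp2f2 and Gstm6, whose values spread most between embryos. In all, 75 members (62%) had a mean under the 30th percentile of all probe sets, against 30% by construction. No detection calls were used, and a probe set with little specific signal understates any difference, so a narrow interval there does not show that the gene did not respond. Among the 46 brighter members 7 had an unadjusted p under 0.05 (15.2%, against 12.9% of the 20171 probe sets in that range), and 12 had separate groups (26.1% against 20.1%). For the 22 members above the median brightness these numbers were 6 (27.3%, against 12.3% of probe sets there) and 8 (36.4% against 21.1%), in both directions and with 0 passing (limma).

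**Figure D1:**
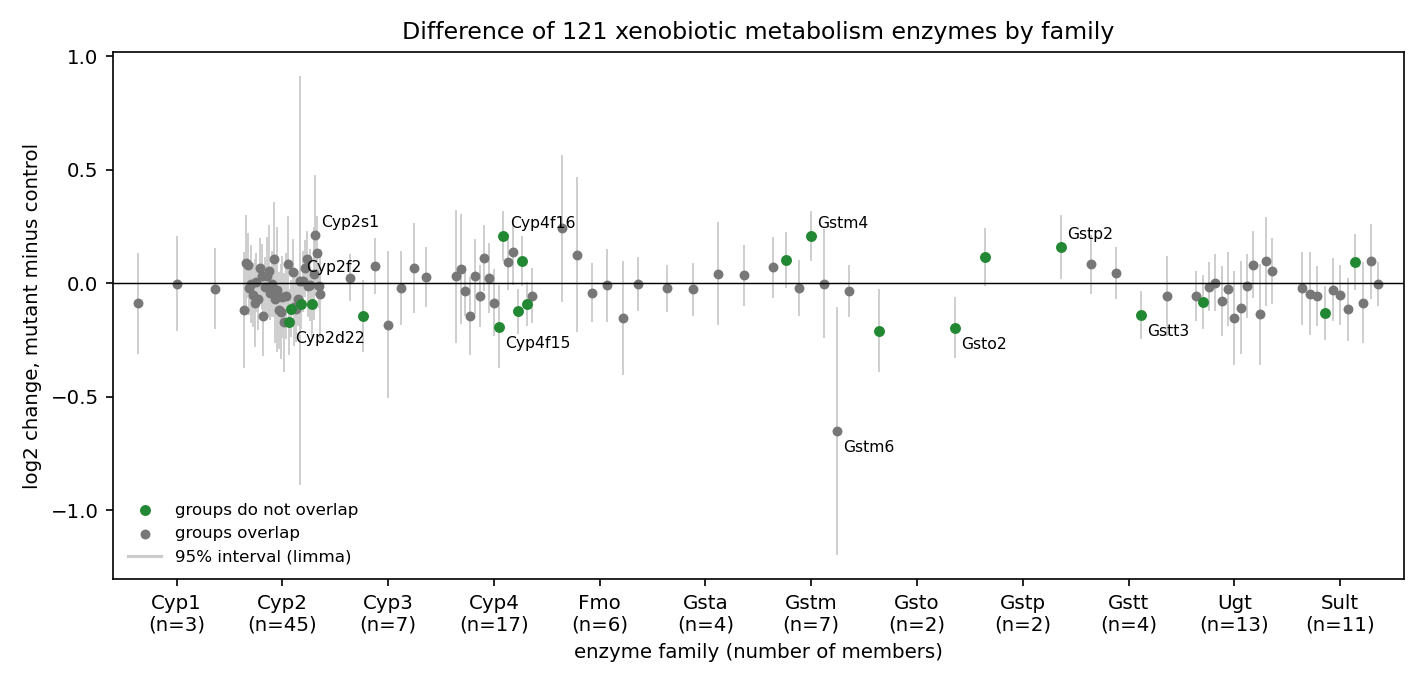
Log2 difference (mutant minus control) of each of the 121 enzymes, grouped on the x axis by family, with points for the limma estimate and grey lines for its 95% interval. Green points are the 20 members whose groups do not overlap, and most members lie close to 0, with wide intervals for Cyp2f2 and Gstm6.

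The arrays had medians of 8.21 to 8.23, and 1 of them stood apart. Foxp4 stood at 10.17, 10.19 and 10.26 in controls 1 to 3 and at 9.83, 9.80 and 9.76 in mutants 1 to 3 (limma adjusted p = 0.0190), and Foxp1 at 10.94, 10.91 and 10.87 against 10.60, 10.59 and 10.72 (limma adjusted p = 0.0884). Where these probe sets lie relative to the deleted exons is not known here, so they do not check the deletion. The female transcript Xist stood at 12.83 in control 3 and at 6.00 to 6.23 in the other arrays, so control 3 is the 1 array with the pattern of a female. Control 3 also had the liver gene Alb at 10.43, against 6.91 in each of the other controls and 7.03, 7.71 and 6.98 in mutants. The summed linear level of the 12 liver markers was 3818 in control 3 and 2044 to 2341 elsewhere, with Afp, Ahsg, Ttr and Serpina1a also highest there. Control 3 held the highest value of 37 members (30.6%), against 28% of all probe sets. With control 3 left out, the number of members that passed was 0 (limma), 15 had an unadjusted p under 0.05 (12.4% against 10.4% of all probe sets in the same fit), and the median log2 difference was -0.00489. Summed marker levels of other organs also differed between the groups: the 8 stomach and oesophagus markers ran from 6870 to 8317 in controls and from 3333 to 4133 in mutants, and the 5 nerve markers from 1757 to 1989 and from 1310 to 1320. The part of such RNA, of liver RNA or of sex in the values of single members was not tested.

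The P450s are the largest group, with 72 members. Of these 0 passed, 4 had an unadjusted p under 0.05 (5.56% against 11.8% of all probe sets) and 10 had groups that did not overlap (13.9% against 18%), 2 higher and 8 lower. Both shares lay below those of the array, but 51 of the 72 (70.8%) were under the 30th percentile of brightness. Over all 75 members in that range, these 51 included, 10.7% had separate groups. On the whole array the share was 20.1% of probe sets that were not dim, against 18% of all. The P450 shares are therefore not a comparison at equal brightness. Cyp4f16, of a subfamily that hydroxylates fatty acids and eicosanoids, stood at 8.74, 8.79 and 8.72 in controls and at 8.92, 8.96 and 9.00 in mutants. All mutant lungs lay above all control lungs, by 0.21 (SE 0.05, 95% interval 0.10 to 0.32, limma adjusted p = 0.140, exact permutation p = 0.1, the smallest that 3 against 3 values allow). The unadjusted p stayed under 0.05 in all 6 fits that left out 1 array (limma). These fits reuse the arrays on which Cyp4f16 was picked, so they are not separate support. The same limit applies to such fits given below for Gstm4, Gsto1 and Gsto2. In the authors' deposited table Cyp4f16 had a q-value of 3.48% at a fold of 1.16, and it and Gstm4 were the 2 members with a q-value under 5%, a threshold that 1.72% of all probe sets met.

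Of the 8 Cyp4f members 7 follow each other on chromosome 17, and their differences had both signs. Of all 8, 5 lay above 0 and 3 below, and 4 had groups that did not overlap (50%, against 18% of all probe sets). Cyp4f15 stood at 6.83, 6.82 and 7.00 in controls and 6.79, 6.55 and 6.74 in mutants (log2 difference -0.19, limma adjusted p = 0.404), a difference of -0.12 without mutant 2. Cyp4f40, which the naming rule does not take in, stood at 6.02, 6.01 and 5.99 against 5.92, 5.88 and 5.86 (-0.12, limma adjusted p = 0.329). The pseudogene Cyp4f41-ps stood at 7.70, 7.64 and 7.71 in controls and at 7.83, 7.75 and 7.76 in mutants (0.10, limma adjusted p = 0.468). Cyp4f16 and Cyp4f40 are next to each other among the members on that chromosome and lay on opposite sides of the controls. The genes are close in sequence, and how far probes of one read another was not checked.

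Chromosome 17 also carries Foxp4. For the 11 members on chromosome 17, 5 (45.5%) had groups that did not overlap, against 19.8% of the 1196 probe sets of that chromosome and 15 of the 110 other members (13.6%). They were the 4 Cyp4f genes and Sult1c2, 2 higher and 3 lower. Over the chromosome 0.669% of probe sets passed the test, close to the array as a whole.

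The promoter window of Cyp4f16, the member with the smallest p, is shown with those of Gstm4, which has the next smallest, of Cyp2f2, which has the largest spread, and of Sult1d1, the 1 enzyme of the lung list whose window holds a forkhead core. Each is a window of 300 bases that ends just past the first listed start in RefSeq (build GRCm38.p6), 5′ to 3′ on the strand of the gene, and capitals mark the motif matches described next.
Cyp4f16, chr17:32536307-32536606, plus strand: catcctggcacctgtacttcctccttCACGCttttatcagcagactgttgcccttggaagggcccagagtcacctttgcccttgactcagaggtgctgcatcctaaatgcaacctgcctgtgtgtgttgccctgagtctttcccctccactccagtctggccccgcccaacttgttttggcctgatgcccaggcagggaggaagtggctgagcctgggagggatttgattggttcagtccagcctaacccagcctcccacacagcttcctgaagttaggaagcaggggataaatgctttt
Gstm4, chr3:108044810-108045109, minus strand: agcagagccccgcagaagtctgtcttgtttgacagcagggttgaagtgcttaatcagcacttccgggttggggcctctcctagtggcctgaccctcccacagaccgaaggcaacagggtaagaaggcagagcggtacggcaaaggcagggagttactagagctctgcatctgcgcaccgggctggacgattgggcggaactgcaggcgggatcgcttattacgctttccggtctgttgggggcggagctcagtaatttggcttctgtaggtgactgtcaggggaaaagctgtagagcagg
Cyp2f2, chr7:27119705-27120004, plus strand: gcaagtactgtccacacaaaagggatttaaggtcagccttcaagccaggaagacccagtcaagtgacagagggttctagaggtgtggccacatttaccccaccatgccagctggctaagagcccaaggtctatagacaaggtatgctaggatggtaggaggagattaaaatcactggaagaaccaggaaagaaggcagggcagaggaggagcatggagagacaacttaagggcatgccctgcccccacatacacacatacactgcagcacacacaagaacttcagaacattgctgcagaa
Sult1d1, chr5:87568957-87569256, minus strand: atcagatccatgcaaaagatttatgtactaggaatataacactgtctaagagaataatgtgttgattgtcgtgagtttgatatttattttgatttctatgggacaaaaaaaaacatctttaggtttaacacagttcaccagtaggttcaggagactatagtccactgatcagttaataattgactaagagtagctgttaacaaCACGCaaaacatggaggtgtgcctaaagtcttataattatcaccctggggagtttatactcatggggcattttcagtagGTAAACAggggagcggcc
Of the 121 members 100 had a promoter in the RefSeq table. The motifs searched, on both strands, were GCGTG, the core bound by the aryl hydrocarbon receptor, TGACNNNGC, the antioxidant response element bound by NRF2, and TGTTTAC, a forkhead core. GCGTG was in 21 of the 100 member windows (21%) and in 32.5% of all 27025 windows. TGACNNNGC was in 7 member windows (7%) and in 12.5% of all windows. TGTTTAC was in 11 member windows (11%) and in 3.55% of all windows. The windows with TGTTTAC were those of Cyp2c38, Cyp2c39, Cyp2j5, Cyp3a11, Cyp3a16, Cyp3a41a, Cyp3a44, Sult1d1, Ugt2b35, Ugt2b37 and Ugt2b38, most of them from gene clusters whose copies share sequence. Sult1d1, a sulfotransferase of catecholamines, stood at 4.47, 4.57 and 4.55 in controls and 4.59, 4.41 and 4.51 in mutants, low on the array and overlapping. The Cyp4f16 and Sult1d1 windows hold 1 GCGTG each, read as CACGC on the strand shown, and the Gstm4 and Cyp2f2 windows hold none of the motifs.

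**Figure D2:**
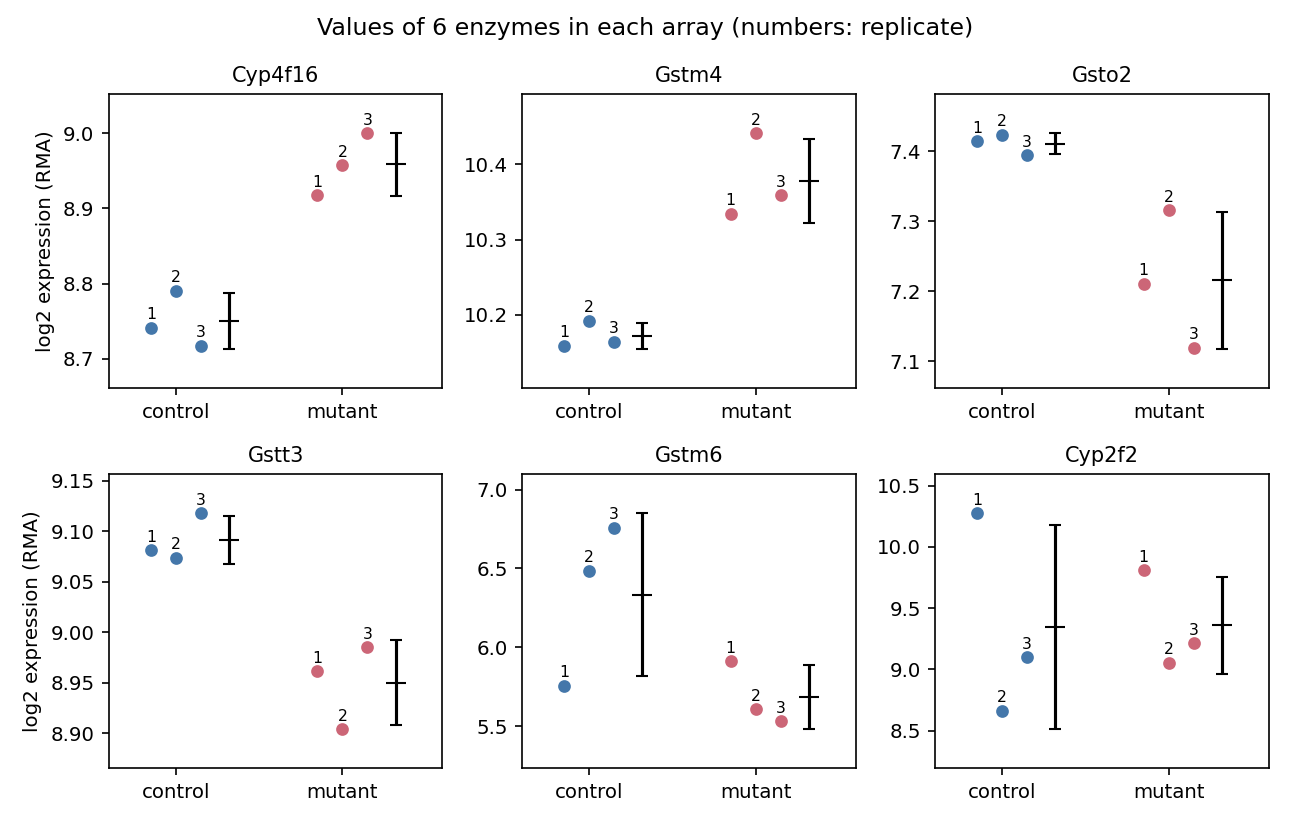
Log2 expression (RMA) of 6 enzymes in every array, with points numbered by replicate and bars for the mean and SD of 3 arrays. Cyp4f16 and Gstm4 lie higher and Gsto2 and Gstt3 lower in mutants without overlap, while Gstm6 and Cyp2f2 spread widely within a group.

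Cyp2f2, the club cell P450 that activates naphthalene, had the widest range over the 6 arrays of all members, and its groups overlapped. It stood at 10.28, 8.66 and 9.10 in controls 1 to 3 and at 9.81, 9.05 and 9.21 in mutants 1 to 3. Its range over the 6 arrays was 1.61 on the log2 scale, and the group means were 9.35 ± 0.83 and 9.36 ± 0.40 (SD, n = 3 each). The log2 difference was 0.01 (95% interval -0.89 to 0.91, limma adjusted p = 0.992), an interval too wide to exclude nearly a 2-fold change either way. Leaving out 1 array moved it from -0.33 (without control 2) to 0.48 (without control 1).

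Values of 3 other enzymes are given beside those of Cyp2f2, chosen after they were seen. Fmo1, a flavin monooxygenase, stood at 8.65, 8.13 and 8.27 in controls and 8.79, 8.48 and 8.50 in mutants. Fmo2, the main flavin monooxygenase of adult lung in most mammals, stood at 8.40, 8.06 and 7.81 against 8.38, 8.05 and 8.21. Cyp2s1, a P450 of epithelia at body surfaces, stood at 8.41, 8.10 and 8.20 against 8.67, 8.30 and 8.37. In each of these 3 genes, as in Cyp2f2, control 1 was the highest control and mutant 1 the highest mutant, and the groups overlapped. That order held for 16 of 121 members (13.2%) and 12.6% of all probe sets, near-equal shares. Cyp4b1, with mutant 3 highest, did not have it. The log2 differences were 0.24 for Fmo1 (limma adjusted p = 0.536), 0.13 for Fmo2 (0.761) and 0.21 for Cyp2s1 (0.510). Leaving out 1 array moved them to between 0.13 (without control 2) and 0.39 (without control 1) for Fmo1, to 0.098 for Cyp2s1 without mutant 1, and to between -0.013 (without control 3) and 0.28 (without control 1) for Fmo2.

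The 9 club cell markers were divided, with a median difference of 0.00454. Of these, 4 were lower in every mutant than in every control (44.4%, against 10.1% of all probe sets). The other 5 lay above 0 with overlapping groups. The secretoglobin Scgb3a2 stood at 7.76, 7.17 and 7.34 in controls and 6.56, 6.69 and 6.75 in mutants, and the carbonyl reductase Cbr2 at 8.45, 7.60 and 7.61 against 7.21, 6.97 and 6.98. Both were lower in every mutant than in every control without passing the test (limma adjusted p = 0.0699 and 0.201). Both were highest in control 1, like Cyp2f2 and 18.1% of all probe sets. Among the mutants, Cyp2f2 and Cbr2 were highest in mutant 1, and Scgb3a2 was lowest there. Without control 1 the difference of Cbr2 moved from -0.83 to -0.55. Scgb3a1 was lower by a difference of -0.17 (limma adjusted p = 0.300). The markers above 0 were Aldh1a1 at 0.16, Cckar at 0.052, Bpifa1 at 0.022, Scgb1a1 at 0.021 and Reg3g at 0.00454, of which Scgb1a1, Bpifa1 and Reg3g were dim. The club marker Scgb1a1 was near the bottom of the array in all lungs, at 4.71 to 5.43. The summed linear level of the 9 club markers ran from 6165 to 7497 in controls and from 5729 to 6069 in mutants, and Aldh1a7, the 1 marker that passed, contributed the largest term to it.

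**Figure D3:**
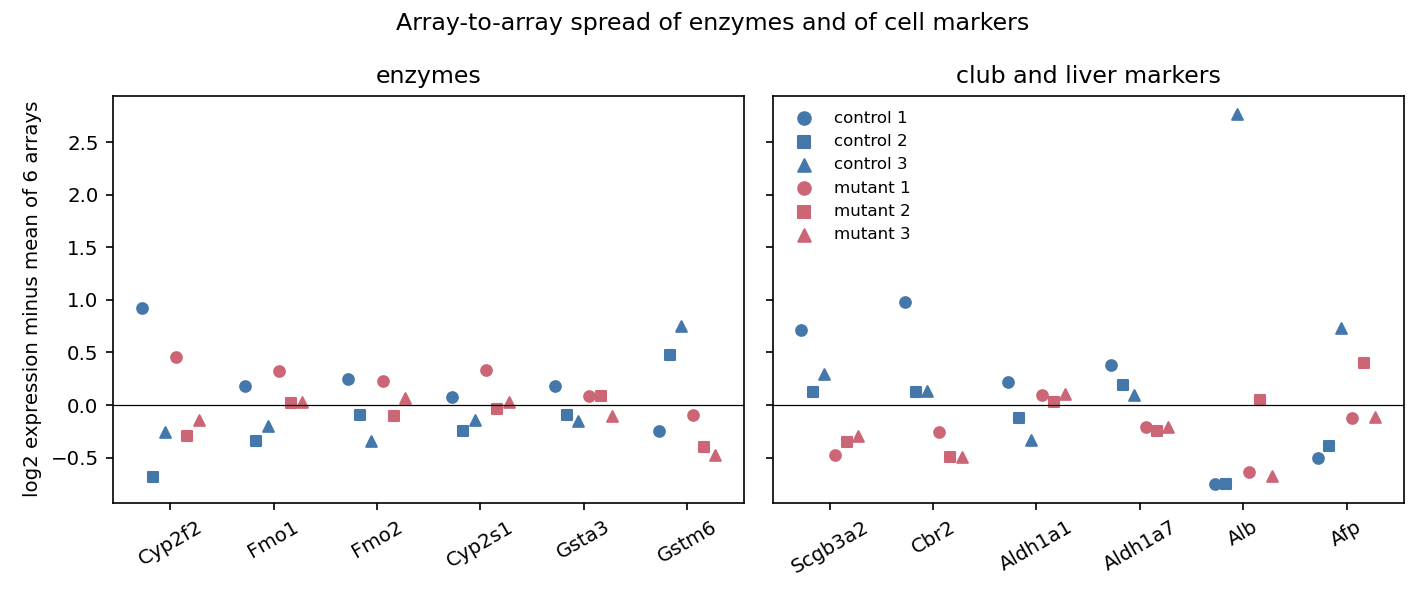
Log2 expression minus the mean of the 6 arrays for 6 enzymes (left) and for club and liver markers (right), with blue for controls, red for mutants and a marker shape for each replicate number. Control 1 is the highest array for Cyp2f2, Scgb3a2, Cbr2 and Aldh1a7, and control 3 lies far above the others for Alb.

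Cyp4b1, a lung P450 that activates ipomeanol, stood at 8.13, 8.13 and 8.08 in controls and 8.23, 8.11 and 8.34 in mutants (log2 difference 0.11, limma adjusted p = 0.529), which became 0.057 without mutant 3 and 0.17 without mutant 2. Cyp2d22, a P450 of the subfamily that oxidises many basic drugs, stood at 9.73, 9.71 and 9.69 against 9.61, 9.41 and 9.60. All mutants lay below all controls there (-0.17, 95% interval -0.32 to -0.03, limma adjusted p = 0.352), with a difference of -0.11 without mutant 2. Of the 9 Cyp2d members 7 lay below 0 and 22.2% above, against 41.6% of all probe sets above 0, with a median of -0.11. Cyp3a13, the member of the drug-metabolising Cyp3a subfamily on the lung list, stood at 5.90, 5.70 and 5.68 against 5.58, 5.67 and 5.60 (-0.14, limma adjusted p = 0.461), or -0.073 without control 1.

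In the inducible family 1, 0 of 3 members had separate groups, against 18% of all probe sets. Cyp1a1, the classical target of the aryl hydrocarbon receptor, stood at 6.31, 6.59 and 6.44 in controls and 6.53, 6.28 and 6.26 in mutants. Cyp1b1, which metabolises steroids and polycyclic hydrocarbons, stood at 7.76, 7.51 and 7.68 against 7.52, 7.67 and 7.68. The groups overlapped for both, with log2 differences of -0.088 and -0.024 for Cyp1a1 and Cyp1b1 (limma adjusted p = 0.744 and 0.917). Cyp2b10, the target of the constitutive androstane receptor, had one of -0.021, the ethanol oxidiser Cyp2e1 one of -0.067 and the fatty acid epoxygenase family member Cyp2j6 one of -0.00924, with limma adjusted p of 0.892, 0.641 and 0.967. The 14 Cyp2c members lay between -0.14 and 0.11 and the 7 Cyp3 members between -0.18 and 0.08, with 0 called in either set (limma). At an unadjusted p under 0.05 there were also 0, against 11.8% of all probe sets (limma). All 7 Cyp3 members and 12 of 14 Cyp2c members were under the 30th percentile of brightness.

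The glutathione transferases held more members with separate groups than the enzymes as a whole, 7 of 19 (36.8%, against 18% of all probe sets and 20.1% of those that were not dim), in both directions and with 0 called. Only 3 of these 19 were dim. Gstm4, a mu-class transferase, stood at 10.16, 10.19 and 10.16 in controls and at 10.33, 10.44 and 10.36 in mutants. Every mutant lay above every control, by 0.21 (SE 0.05, 95% interval 0.10 to 0.32, limma adjusted p = 0.149, exact permutation p = 0.1). In the authors' deposited table its q-value was 3.70%, and its unadjusted p stayed under 0.05 in all 6 fits without 1 array.

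Members of the mu cluster on chromosome 3 differed among themselves. Gstm2 stood at 10.80, 10.80 and 10.66 in controls and 10.87, 10.85 and 10.86 in mutants (log2 difference 0.10, limma adjusted p = 0.489), without overlap. Without control 3, the array with the high Alb, that difference was 0.057. Gstm1, the most studied mu enzyme, overlapped at 0.071 (limma adjusted p = 0.657), and Gstm5 and Gstm7 had differences of -0.00133 and -0.034 (limma adjusted p = 0.997 and 0.810). Gstm6, singled out after its values were seen, had the largest difference of all members, -0.65 (95% interval -1.20 to -0.10, limma adjusted p = 0.345). It stood at 5.76, 6.49 and 6.76 in controls and 5.91, 5.61 and 5.53 in mutants, so control 1 lay among the mutants and controls 2 and 3 above them. Without control 1 the difference was -0.94 and passed (limma adjusted p = 0.0444), and without control 3 it was -0.44 (limma adjusted p = 0.532). Gstm6 lies at the 17.3 percentile of brightness.

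Neighbouring genes of the pi class lay higher in mutants and those of the omega class lower. Gstp1, the main transferase of many epithelia, stood at 11.72, 11.75 and 11.84 in controls and 11.85, 11.95 and 11.84 in mutants, and Gstp2 at 9.63, 9.64 and 9.72 against 9.80, 9.94 and 9.74. For neither gene did the groups overlap, though control 3 and mutant 3 nearly met for Gstp1 (log2 differences 0.11 and 0.16, limma adjusted p = 0.462 and 0.373), and without mutant 2 the difference of Gstp2 was 0.10. A second probe set of Gstp2 gave 0.14 (limma adjusted p = 0.428), and these near-identical copies may share probes. Gsto1 and Gsto2, omega-class enzymes that reduce dehydroascorbate, lie side by side on chromosome 19 like the pi genes. Gsto1 stood at 10.16, 10.24 and 10.17 in controls and 9.80, 10.08 and 10.07 in mutants, and Gsto2 at 7.41, 7.42 and 7.39 against 7.21, 7.32 and 7.12. Both were lower in every mutant, by -0.21 and -0.20 (limma adjusted p = 0.363 and 0.258). Without mutant 1 the difference of Gsto1 was -0.12. The unadjusted p of Gsto2 stayed under 0.05 in all 6 fits without 1 array, and that of Gsto1 in 4.

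Of the theta class, Gstt3 stood at 9.08, 9.07 and 9.12 in controls and 8.96, 8.90 and 8.99 in mutants, lower without overlap (-0.14, 95% interval -0.25 to -0.04, limma adjusted p = 0.287). Its relative Gstt1 stood at 9.64, 9.77 and 9.60 against 9.78, 9.72 and 9.78 and overlapped (0.084, limma adjusted p = 0.590). In the alpha class 0 of 4 members had separate groups, against 18% of all probe sets. Gsta4, which conjugates products of lipid peroxidation, had a difference of 0.036 (limma adjusted p = 0.833), and Gsta3 stood at 7.28, 7.00 and 6.94 in controls and 7.18, 7.18 and 6.99 in mutants (0.043, limma adjusted p = 0.882).

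Among the 6 flavin monooxygenases 0 had separate groups, against 18% of all probe sets. Besides Fmo1 and Fmo2 above, Fmo5 stood at 7.77, 7.87 and 7.65 in controls and 7.85, 7.43 and 7.55 in mutants (-0.15, limma adjusted p = 0.615), or between -0.27 (without mutant 1) and -0.063 (without mutant 2).

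The conjugating families of glucuronic acid and sulfate were mostly dim, with 11 of 13 UDP-glucuronosyltransferases and 7 of 11 sulfotransferases under the 30th percentile. The UDP-glucuronosyltransferases lay between -0.15 and 0.10, and 0 passed. An unadjusted p under 0.05 was held by 0 of them, against 11.8% of all probe sets (limma). Ugt8a, which makes galactosylceramide rather than drug conjugates, stood at 8.66, 8.45 and 8.48 in controls and 8.58, 8.57 and 8.61 in mutants (0.054, limma adjusted p = 0.764). Ugt2b34 had a difference of -0.078 (limma adjusted p = 0.673). Among the sulfotransferases 9 of 11 lay below 0 and 18.2% above, against 41.6% of all probe sets above 0. Sult1c2 stood at 5.92, 5.95 and 6.03 in controls and 5.86, 5.78 and 5.86 in mutants, lower without overlap (-0.13, limma adjusted p = 0.380). Sult2b1, which sulfates cholesterol in epithelia, stood at 8.08, 8.01 and 7.90 against 7.86, 7.94 and 7.85 (-0.12, limma adjusted p = 0.490), or -0.074 without control 1. The phenol sulfotransferase Sult1a1 and the neuronal Sult4a1 had differences of -0.023 and -0.085 (limma adjusted p = 0.913 and 0.689).

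Genes that serve these enzymes were read from the same fit. Among 16 genes of electron supply and heme 0 passed, and 4 had an unadjusted p under 0.05, 2 in each direction (limma, 25% against 11.8% of all probe sets). Ppox, a late enzyme of heme synthesis, stood at 10.44, 10.35 and 10.27 in controls and 10.70, 10.55 and 10.65 in mutants (log2 difference 0.28, limma adjusted p = 0.139). Hmox1, which breaks heme down, stood at 9.71, 9.76 and 9.64 against 9.84, 9.91 and 10.04 (0.23, limma adjusted p = 0.234). Cyb5r3, the reductase of cytochrome b5, was lower in every mutant (-0.18, limma adjusted p = 0.324). The groups of 8 of the 16 did not overlap (50%, against 18% of all probe sets and 20.1% of those that were not dim).

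Among 22 sensors and regulators 0 passed, and 3 had an unadjusted p under 0.05 (limma, 13.6% against 11.8% of all probe sets). Pparg, a lipid-activated nuclear receptor, stood at 8.47, 8.29 and 8.23 in controls and 8.05, 7.86 and 8.21 in mutants (-0.29, limma adjusted p = 0.315). The forkhead factors Foxa1 and Foxa3, regulators of liver and lung epithelial genes, had differences of 0.15 and -0.27 (limma adjusted p = 0.289 and 0.300), each with groups that did not overlap, and Foxa3 was at -0.16 without mutant 3. Among 24 genes of glutathione supply and NRF2 targets 0 passed and 3 had an unadjusted p under 0.05 (limma, 12.5% against 11.8%). They were the sulfiredoxin Srxn1 at -0.16, the plasma glutathione peroxidase Gpx3 at -0.16 and the pentose phosphate enzyme Pgd at 0.11 (limma adjusted p = 0.231, 0.357 and 0.419).

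Of 28 other phase I and II enzymes 1 fell, 0 rose and 27 did not pass, while 0.774% of all probe sets passed (limma). The gene that fell was Aldh1a7, an aldehyde dehydrogenase close to Aldh1a1. It stood at 11.76, 11.58 and 11.48 in controls and 11.18, 11.13 and 11.17 in mutants (log2 change -0.44, SE 0.07, limma adjusted p = 0.0481). The call ended with the replicate number as a block (limma adjusted p = 0.138), with median centring (0.0526) and in each fit that left out control 1, control 2 or a mutant (0.0545 to 0.190), and held without control 3. At an unadjusted p under 0.05 there were 5 of the 28, 3 lower and 2 higher (limma, 17.9% against 11.8% of all probe sets). Besides Aldh1a7, the lower ones were the carboxylesterase Ces2e at -0.22 (limma adjusted p = 0.0939) and Cbr2, given above. The higher ones were Ces1d at 0.48 and Akr1c13 at 0.23 (limma adjusted p = 0.212 and 0.247). Among 15 transporters 0 passed, and 2 had an unadjusted p under 0.05 (limma, 13.3% against 11.8% of all probe sets). They were the efflux pumps Abcc4 and Abcc3 at -0.20 and -0.18 (limma adjusted p = 0.165 and 0.304). Of 9 genes that supply the sugar and sulfate donors, 0 passed or had an unadjusted p under 0.05 (limma). The same held for 14 P450s of steroid, vitamin and retinoid metabolism. Of these 14, 11 lay below 0 and 21.4% above, against 41.6% of all probe sets above 0.

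**Figure D4:**
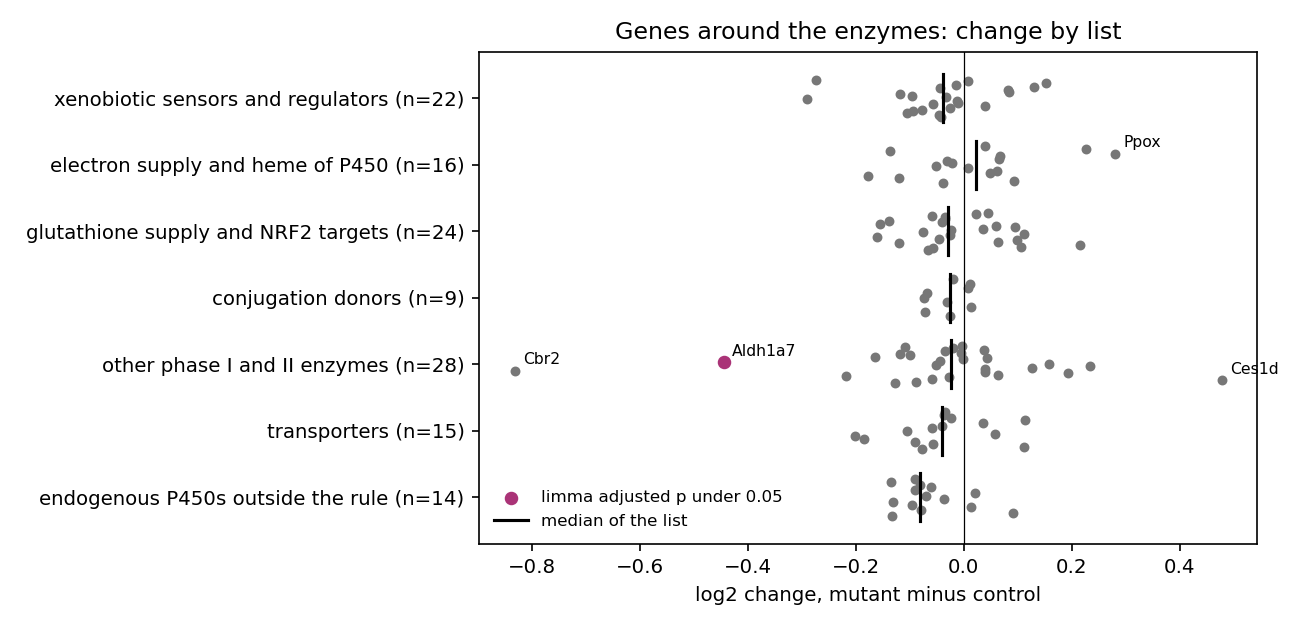
Log2 difference (mutant minus control) of each gene in 7 lists around the enzymes, with a black line at the median of each list and the 1 gene that passed the test in purple. Aldh1a7 lies at -0.44, while Cbr2 at -0.83 and Ces1d at 0.48 did not pass, and the medians of all lists lie within 0.1 of 0.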

How the data were processed

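Log2 expression per probe set was deposited for 6 arrays of whole lung, made with RMA (background correction, normalization between arrays and summary of probes) by the authors, per the submitters' processing notes. The array type, the annotation and the authors' test are not stated in the labels or headers. The authors' deposited table adds gene symbols, a signed fold (other unit), a difference score (not used), a p-value (not used) and a q-value, on a scale of percent, per the file headers. Its array values equalled those of the value matrix for all 28815 probe sets.

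The log2 values were fitted with limma 3.58.1 in R 4.3.3 (lmFit, eBayes, no covariate, no filter), and p-values were adjusted by Benjamini-Hochberg across the 28815 probe sets. The number of arrays, 3 in each group, limits precision, and labels do not state litters. All 121 members matched RefSeq genes (GRCm38.p6 table), and 1 symbol, Cyp2c44, is now Cyp2c23. Brightness is compared as a rank only. Named were members that passed, the 6 highest and 6 lowest with separate groups, the 12 brightest and 31 lung enzymes of which 28 were measured. Of the measured ones, 1 is not reported here by name. Members and lists were chosen with earlier results of these data known. The fit was tested on simulated data, with noise independent between probe sets and no effect shared by an array. Of 100 probe sets changed by 0.5 on the log2 scale 72 were recovered among 28815, and of 100 changed by 1, 97. Besides these, 15 unchanged probe sets were called. Changes under 0.5, the size of most member differences, were not simulated.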

Additional observations from a re-analysis of the deposited data

How the results depend on the processing

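The number of members that passed stayed at 0 in all alternatives except array weights, 1 fit without an array and the unadjusted threshold. With array weights 4 passed (Cyp4f16, Gstm4, Gstm6 and Gsto2, limma), beside 1748 probe sets in all, but the weights stopped before convergence and gave control 2 a weight of 9.20 against 0.400 to 0.922 for the others. Without control 1, 1 passed (Gstm6), so the range without 1 array was 0 to 1, and at an unadjusted p under 0.05 there were 11 (limma). The total over the array was 223, and became 7 with the replicate number as a block, 360 at an adjusted p under 0.1, 3393 at an unadjusted p under 0.05 and 11 to 152 without 1 array. Leaving out mutant 2 gave 11, control 2 gave 18, control 3 gave 102, mutant 1 gave 136, mutant 3 gave 147 and control 1 gave 152. At an unadjusted p under 0.05 (limma) the members numbered 7 to 16 without 1 array. The lowest number came without mutant 2 (5.79%, against 9.02% of all probe sets in that fit). The highest came without control 1 (13.2% against 14.9%).

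The replicate number did not pair the samples: deviations of equal-numbered arrays correlated at -0.19, 0.04 and -0.19. The block left the number of members that passed at 0 and the median at -0.021. The members' median ran from -0.028 to -0.00489 without 1 array, and its sign turned with repeated quantile normalization (0.00542, with 62 of 121 above 0) and over the 22 members above the median brightness (0.050).

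These differences changed sign, and the cause was not tested. With quantile normalization Gstm5 was at 0.00879, Cyp2b10 at 0.024 and Sult1a1 at 0.014. With array weights Cyp1b1 was at 0.11, Alb at 0.20 and Scgb1a1 at -0.051. Without 1 array the ranges were -0.091 to 0.11 for Gstm5, -0.00837 to 0.069 for Gsta4, -0.33 to 0.48 for Cyp2f2, -0.095 to 0.030 for Cyp1b1, -0.065 to 0.00247 for Cyp2b10, -0.068 to 0.052 for Cyp2j6, -0.013 to 0.28 for Fmo2, -0.024 to 0.15 for Gsta3, -0.061 to 0.046 for Sult1a1, -0.073 to 0.019 for Sult1d1, -1.43 to 0.33 for Alb and -0.20 to 0.16 for Scgb1a1. None of the other named members changed sign under the alternatives run. The alternatives for genes of the surrounding lists were added after the data were seen.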
